A study of Mus musculus with 12 samples.

Results

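Converted transferred Tregs were compared with host peripheral Tregs through the open chromatin regions found in each. The comparison used 4 of the 12 ATAC-seq libraries of the series, chosen by their labels: 2 of transferred T cells that had become regulatory (donor Treg) and 2 of peripheral Tregs of the host animals (host pTreg). ATAC-seq marks accessible DNA by the places where a transposase can insert, and each library came as 1 list of called peaks. Merging peaks of the 4 lists wherever they overlapped by 1 bp or more gave 41916 regions. Of these, 901 were called in both libraries of donor Treg and neither of host pTreg, 1854 had the opposite pattern, and 27069 had a peak in all 4 libraries.

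All cells were Balb/c, and both groups were bone marrow T cells sorted 14 days after T cells with the 6.5TCR receptor, specific for hemagglutinin (HA), had been transferred into Aire-HA hosts. Donor Treg cells were sorted as CD3+ and CD4+, as CD45.2+ without CD45.1, and as CD25+LAP+. Host pTreg cells were sorted as CD3+ and CD4+, as positive for both CD45 alleles, and as CD25+CTLA4+ without Nrp1. The groups therefore differ in receptor, CD45 allele and sort markers as well as in history. The other 8 libraries were host tTreg cells (sorted as host pTreg but Nrp1+), conventional CD25- cells of donor (donor Tconv) and host (host Tconv, labelled as CD45.1+ without CD45.2, so that their hosts may differ from those of the host Tregs), and Tregs induced in culture and sorted as CD25+LAP+ (iTreg), with 2 libraries in each group; they are used here as references. The library names in the labels also carry a number, higher in both donor Treg than in both host pTreg libraries, whose meaning is not given. The labels give no age, do not say whether a library was 1 animal or a pool, and do not say how the iTreg cells were cultured.

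Regulatory T cells restrain immune responses and depend on the transcription factor Foxp3. Thymic Tregs (tTregs) acquire this fate during development, while peripheral Tregs (pTregs) arise from conventional CD4 T cells that meet antigen outside the thymus, often with TGF-beta present. Helios, encoded by Ikzf2, and the surface protein Nrp1 are commonly used to mark tTregs. GARP, encoded by Lrrc32, holds latent TGF-beta, whose propeptide is LAP, on the Treg surface. The comparison addresses which accessible regions Tregs recently formed from antigen-specific T cells hold or lack beside Tregs already established in the host.

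The libraries carry run codes in their labels, BW13 for donor Treg and both Tconv groups and DR31 for host pTreg and host tTreg, with no code for iTreg. Run and group therefore cannot be told apart in any value that follows. The 4 lists held 32234 and 34467 peaks in donor Treg and 37934 and 32885 in host pTreg, and the number of reads behind them is unknown, so a region with no peak is not shown to be closed. Replicates shared 29942 of 35912 regions (83.4%) in donor Treg and 30866 of 38835 (79.5%) in host pTreg. Peaks at the starts of the chromosome Y genes Eif2s3y, Uty and Ddx3y were present in both host pTreg and both host tTreg libraries and in none of the other 8, and without chromosome Y the counts were 901 and 1851. The labels used here give no sex, and whether the animals differed in sex was not tested. Of 18 marker genes of other blood cells whose start site could be read, 16 had no peak there in any of the 4 libraries, among them Cd79a and Pax5 (B cells), Ncr1 and Klrb1c (NK cells), Cd8a, Mpo and Gata1. Cebpa and Meis1 had one in all 4. The starts of the T cell genes Cd3e and Cd5 and of Il2ra and Ctla4 had a peak in all 12 libraries, whereas the start windows of Foxp3 had one in none of the 12.

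The starts of a few T cell genes lay in regions that differed, and their sequences are printed because a peak there was found in both libraries of 1 group and neither of the other. Each runs 5′ to 3′ in the direction of the gene, from 250 bases before the start, and comes from RefSeq on GRCm38.p6, whose coordinates are those of mm10. The starts used for Cd160 and Il4 lie inside the annotated gene and are not its upstream end. Capitals mark letters found on either strand for AP-1 (TGANTCA), RUNX (TGTGGT), ETS (GGAAGT), STAT (TTCNNNGAA) and NFAT (GGAAA); where STAT and NFAT letters overlap, as in Nkg7 and Il4, they form 1 run of capitals.
Cd160, chr3:96814492-96814771, minus strand, donor Treg only: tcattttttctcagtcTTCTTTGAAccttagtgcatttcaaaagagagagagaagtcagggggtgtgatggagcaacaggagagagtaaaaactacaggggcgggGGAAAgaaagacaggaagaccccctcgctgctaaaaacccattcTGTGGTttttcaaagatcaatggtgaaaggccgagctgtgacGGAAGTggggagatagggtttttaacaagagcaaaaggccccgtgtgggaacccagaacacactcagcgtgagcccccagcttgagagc
Il4, chr11:53617309-53617588, minus strand, host pTreg only: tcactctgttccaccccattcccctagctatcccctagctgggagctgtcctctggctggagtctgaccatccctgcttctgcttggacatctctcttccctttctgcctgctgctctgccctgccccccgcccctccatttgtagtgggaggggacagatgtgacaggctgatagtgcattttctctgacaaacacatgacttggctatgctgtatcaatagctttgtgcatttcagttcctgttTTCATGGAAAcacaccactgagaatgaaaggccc
Il12rb2, chr6:67376159-67376438, minus strand, host pTreg only: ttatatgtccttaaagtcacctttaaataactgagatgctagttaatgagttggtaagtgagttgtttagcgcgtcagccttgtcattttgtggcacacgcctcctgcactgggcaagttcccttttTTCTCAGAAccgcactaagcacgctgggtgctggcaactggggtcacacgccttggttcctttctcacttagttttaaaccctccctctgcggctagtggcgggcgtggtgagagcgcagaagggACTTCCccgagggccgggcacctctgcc
Nkg7, chr7:43436888-43437167, plus strand, host pTreg only: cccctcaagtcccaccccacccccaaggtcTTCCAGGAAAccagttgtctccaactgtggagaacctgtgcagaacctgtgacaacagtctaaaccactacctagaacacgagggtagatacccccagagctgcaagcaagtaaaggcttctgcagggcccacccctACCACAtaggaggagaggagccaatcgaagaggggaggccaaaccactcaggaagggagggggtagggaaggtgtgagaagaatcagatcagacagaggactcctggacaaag
Trpm2, chr10:77969843-77970122, minus strand, host pTreg only: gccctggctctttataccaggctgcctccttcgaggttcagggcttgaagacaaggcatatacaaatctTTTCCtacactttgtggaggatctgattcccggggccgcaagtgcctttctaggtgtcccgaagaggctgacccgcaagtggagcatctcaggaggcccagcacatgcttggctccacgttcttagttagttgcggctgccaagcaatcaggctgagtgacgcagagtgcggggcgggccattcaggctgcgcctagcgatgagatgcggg

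Cd160 encodes an inhibitory and costimulatory receptor, Il4 the cytokine interleukin-4, Il12rb2 a chain of the interleukin-12 receptor, Nkg7 a protein of cytotoxic granules and Trpm2 a calcium-permeable channel. STAT letters were found in 4 of these 5 sequences, in all but Trpm2, and in Il4 the letters TTCATGGAA began 4 bases before the start. A match of letters is a description and not a binding site. Over whole windows of 250 bases before to 50 after a start, 67 windows of 63 genes lay in donor Treg-only regions, 92 windows of 85 genes in host pTreg-only regions and 11554 distinct windows in regions of all 4 libraries. STAT letters were in 4 of the 67, 12 of the 92 and 755 of the 11554 windows (6.53%), and in 8.29% of all 32817 windows. RUNX letters were in 11, 22 and 1390 windows of the same sets, and in 16.8% of all windows. AP-1 letters were in 7 windows of donor Treg only (10.4%), 9 of host pTreg only (9.78%) and 4.25% of those in regions of all 4, against 7.81% of all.

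Donor Treg-only regions made up 2.15% of all regions and host pTreg-only regions 4.42%. With 2 libraries against 2, the smallest two-sided exact p is 0.333, so presence is described and not tested. The counts moved with single libraries: leaving out donor Treg replicate 1, donor Treg replicate 2 or host pTreg replicate 1 gave 2424, 1558 and 2623 donor Treg-only regions. Leaving out donor Treg replicate 2 or host pTreg replicate 2 gave 3202 and 5287 host pTreg-only regions. With each list cut to its 32234 widest peaks, so that list length was equal, the counts were 1375 and 1452. Differing regions were narrow: the median merged width was 281 bp for donor Treg only and 315.5 bp for host pTreg only, against 760 bp where all 4 libraries had a peak. The narrower of both libraries stood at 150 bp, the smallest width in the lists, at 38.6% and 28.9% of them and at 5.94% of the regions of all 4. In 170 donor Treg-only and 520 host pTreg-only regions both libraries covered at least 300 bp. Both sets lay away from starts, with 10.3% and 8.25% within 1 kb of one against 33.9% of the regions of all 4.

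The sets differed in the other libraries that carried them. All 4 Tconv libraries had a peak at 436 (48.4%) of the donor Treg-only and 554 (29.9%) of the host pTreg-only regions, against 72.1% of all regions. No Tconv library had one at 189 (21.0%) and 661 (35.7%), against 10.9% of all regions. Host tTreg libraries carried 11.1% and 40.2% of the donor Treg-only regions and 22.7% and 59.4% of the host pTreg-only regions, the lower value of each pair coming from the shortest of the 12 lists. Of all regions they carried 64.9% and 80.0%, so both sets lay below those shares. The pattern of a peak in all 4 Tconv and no tTreg library was held by 295 (32.7%) of the donor Treg-only regions and 256 (13.8%) of the host pTreg-only regions, against 7.69% of all regions. The opposite pattern, no Tconv and both tTreg libraries, was held by 24 (2.66%) and 162 (8.74%), against 2.75%. These shares follow the run codes, since Tconv shares its code with donor Treg and tTreg with host pTreg. The iTreg libraries, which have no code, carried 66.7% and 72.6% of the donor Treg-only regions and 57.9% and 61.4% of the host pTreg-only regions. Of all regions the iTreg libraries carried 83.8% and 85.6%, so both sets lay below those shares as well. No peak in any of the other 8 libraries was found at 48 donor Treg-only regions (5.33%) and 114 host pTreg-only regions (6.15%), against 2.52% of all regions.

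**Figure D1:**
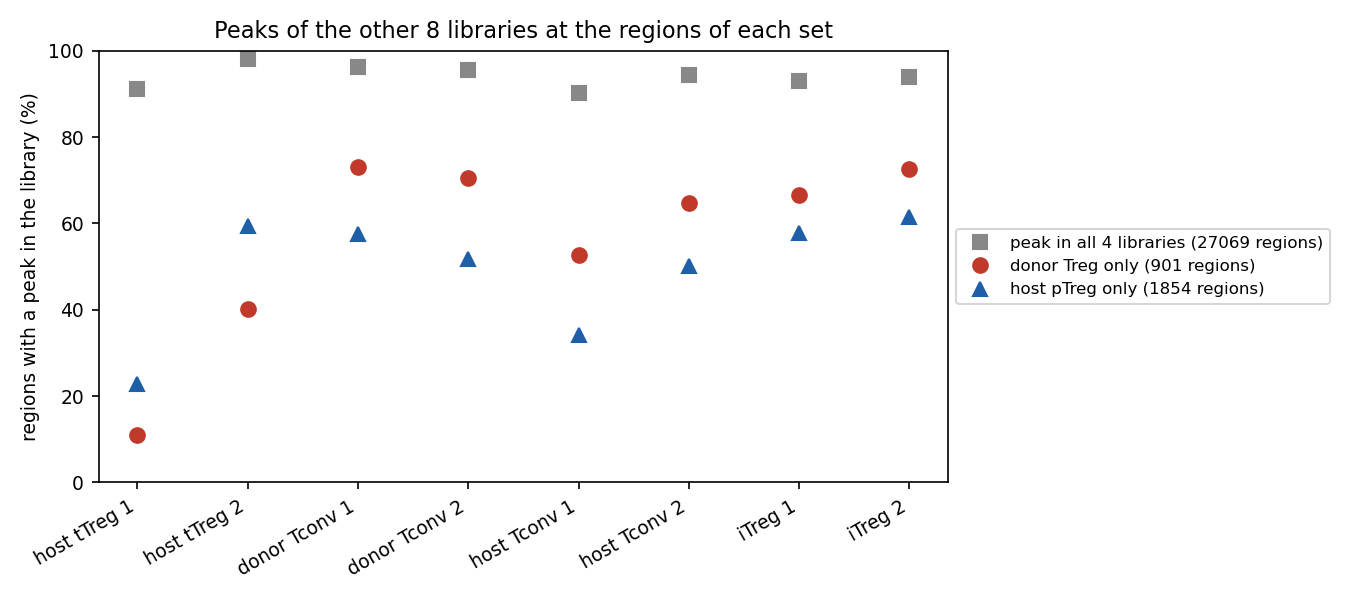
Share of each set of regions (percent, vertical axis) that also had a peak in each of the other 8 libraries (horizontal axis), for donor Treg-only, host pTreg-only and shared regions. In both host tTreg libraries the host pTreg-only set lies above the donor Treg-only set (22.7% and 59.4% against 11.1% and 40.2%), and in all 4 Tconv and both iTreg libraries it lies below.

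Regions that host Tregs held beyond conventional cells were held by the converted cells at a smaller share than host pTreg regions in general. For this, peaks of all 12 libraries were merged, and 909 regions had a peak in both host pTreg and both host tTreg libraries and in no Tconv library. Donor Treg had a peak in both libraries at 587 of them (64.6%), in 1 library at 165 and in neither at 157 (17.3%), while iTreg had one in both at 378. Of the 1725 regions of both host pTreg and no Tconv library, tTreg aside, 747 (43.3%) were in both donor Treg libraries and 642 in neither. Seen from the other side, 1122 regions were in both donor Treg libraries and no Tconv library, and host pTreg had a peak in both libraries at 747 (66.6%) of those and in neither at 186. For comparison, the merge of the 4 libraries, Tconv aside, had 30866 regions in both host pTreg and 29942 in both donor Treg libraries. Of each of these, 27069 were in all 4, a larger share than the 64.6%, 43.3% and 66.6% above. Regions of all 4 Tconv libraries that a Treg group lacked were seldom kept by the other group. Both donor Treg libraries had a peak at 405 (8.01%) of the 5055 such regions absent from host pTreg, and both host pTreg libraries at 527 (9.69%) of the 5440 absent from donor Treg. Of all 33638 regions of the 4 Tconv libraries, both donor Treg libraries had 76.4% and both host pTreg libraries 75.8%. Both host tTreg libraries had 0.791% of the 5055 and 2.28% of the 5440. Whether such regions lie near the limit of peak calling was not tested.

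Genes were then read one by one. Each region was assigned to the protein-coding gene holding its midpoint, or else to the nearest within 50 kb, which placed 37556 regions at 13511 genes. Of the assigned regions, 728 (1.94%) were donor Treg only and 1627 (4.33%) host pTreg only. More regions of the donor kind than of the host kind were found at 547 genes (4.05%), and the reverse at 1302 genes (9.64%). The 12 genes with the largest net number in each direction and those of a list of 46 genes of Treg and T cell biology are named.

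**Figure D2:**
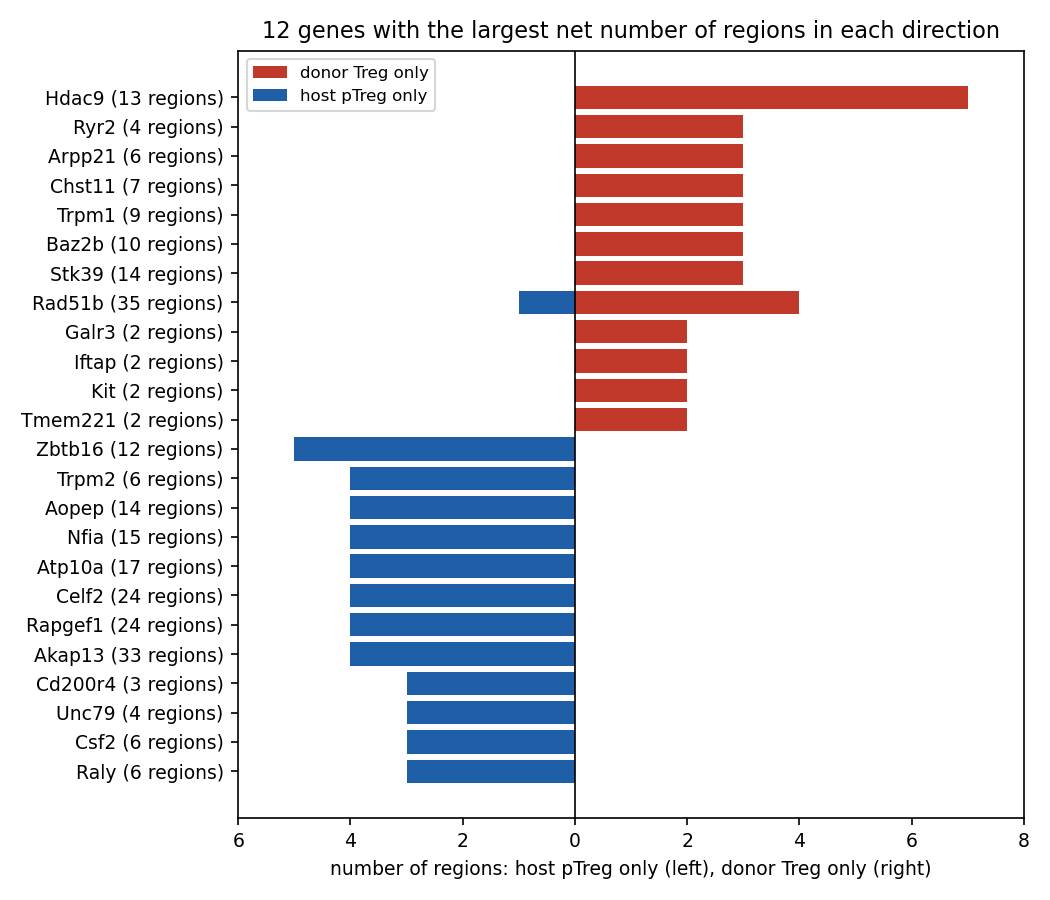
Number of donor Treg-only regions (red bars, to the right) and host pTreg-only regions (blue bars, to the left) at the 12 genes with the largest net number in each direction, with all regions of the gene in brackets. Hdac9 has the longest red bar with 7 regions and Zbtb16 the longest blue bar with 5.

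Hdac9, a class IIa histone deacetylase that represses transcription through partner factors, led the donor direction. Its 13 regions held 7 of donor Treg only, all inside the gene between chr12:34432601 and chr12:34665101. The widest, chr12:34432601-34433273, covered 669 and 654 bp in donor Treg, 342 and 534 bp in iTreg, 150 bp in 1 donor Tconv library and none elsewhere. The next, chr12:34560827-34561346, covered 496 and 491 bp in donor Treg, 445 bp in 1 host tTreg library and 150 bp in 1 donor Tconv library. In both donor Treg libraries and no other library, peaks were seen at chr12:34495906-34496253 (200 and 348 bp) and chr12:34653566-34653876 (311 and 227 bp). No Tconv library had a peak at 5 of the 7 regions, whereas 21.0% of all donor Treg-only regions had none. Host tTreg replicate 2 had a peak at 4 of the 7 and replicate 1 at 0, against 40.2% and 11.1% of all donor Treg-only regions. At chr12:34497794-34498118 and chr12:34562374-34562925 both donor Treg libraries had a peak. Host pTreg replicate 1 had one there too (318 and 243 bp), and replicate 2 had none. Over the 4 class IIa genes, 9 of 40 regions (22.5%) were donor Treg only and 1 (2.5%) host pTreg only, and the list was chosen with Hdac9 known.

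The other 11 genes of the donor direction had 2 to 4 such regions each. They were Ryr2, a calcium release channel; Arpp21, an RNA-binding phosphoprotein; Chst11, a sulfotransferase; Trpm1, a cation channel; Baz2b, a bromodomain protein; Stk39, a kinase; Rad51b, a DNA repair protein; Galr3, a galanin receptor; Iftap; Kit, the stem cell factor receptor; and Tmem221. Rad51b had 4 donor Treg-only regions and 1 host pTreg-only region among 35, and Ryr2 3 and 0 among 4. Across the 12 genes, 33 of 37 donor Treg-only regions lay inside gene bodies, 20 were in all 4 Tconv libraries and 21 in both iTreg libraries. Host tTreg replicate 1 carried 1 of the 37 and replicate 2 carried 17. Of all donor Treg-only regions, 55.2% lay inside gene bodies, 48.4% were in all 4 Tconv libraries and 65.7% in both iTreg libraries. Host tTreg replicates 1 and 2 carried 11.1% and 40.2% of them. The gene-body shares are not like for like, since only 80.8% of all donor Treg-only regions had an assigned gene. At the 12 genes of the host direction, 40 of 45 host pTreg-only regions lay inside gene bodies, against 59.4% of all host pTreg-only regions. At Kit, chr5:75645340-75645666 covered 327 and 272 bp in donor Treg and 300 to 327 bp in the 4 Tconv libraries. The Kit start itself had no peak in the 4 libraries.

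Lrrc32, which encodes GARP, and its neighbour Emsy, a chromatin protein gene, held a run of 6 donor Treg-only regions between chr7:98524031 and chr7:98589355, with none of host pTreg only among the 20 regions of the locus and 11 shared by all 4 libraries. None of the 6 had a peak in any Tconv library, 5 had one in both iTreg libraries, and host tTreg replicate 2 had 3 while replicate 1 had none. Of all donor Treg-only regions, 21.0% were in no Tconv library and 65.7% in both iTreg libraries. The region chr7:98524031-98524280 covered 227 and 232 bp in donor Treg and 250 bp in each iTreg library. At chr7:98556855-98557338 donor Treg covered 476 and 406 bp, host tTreg replicate 2 covered 271 bp, and iTreg had no peak. In Emsy, chr7:98589096-98589355 covered 240 and 234 bp. Donor Treg and iTreg, which share most of this run, are the groups sorted on LAP, and GARP holds LAP at the cell surface. The part of the sort in these values was not tested.

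**Figure D3:**
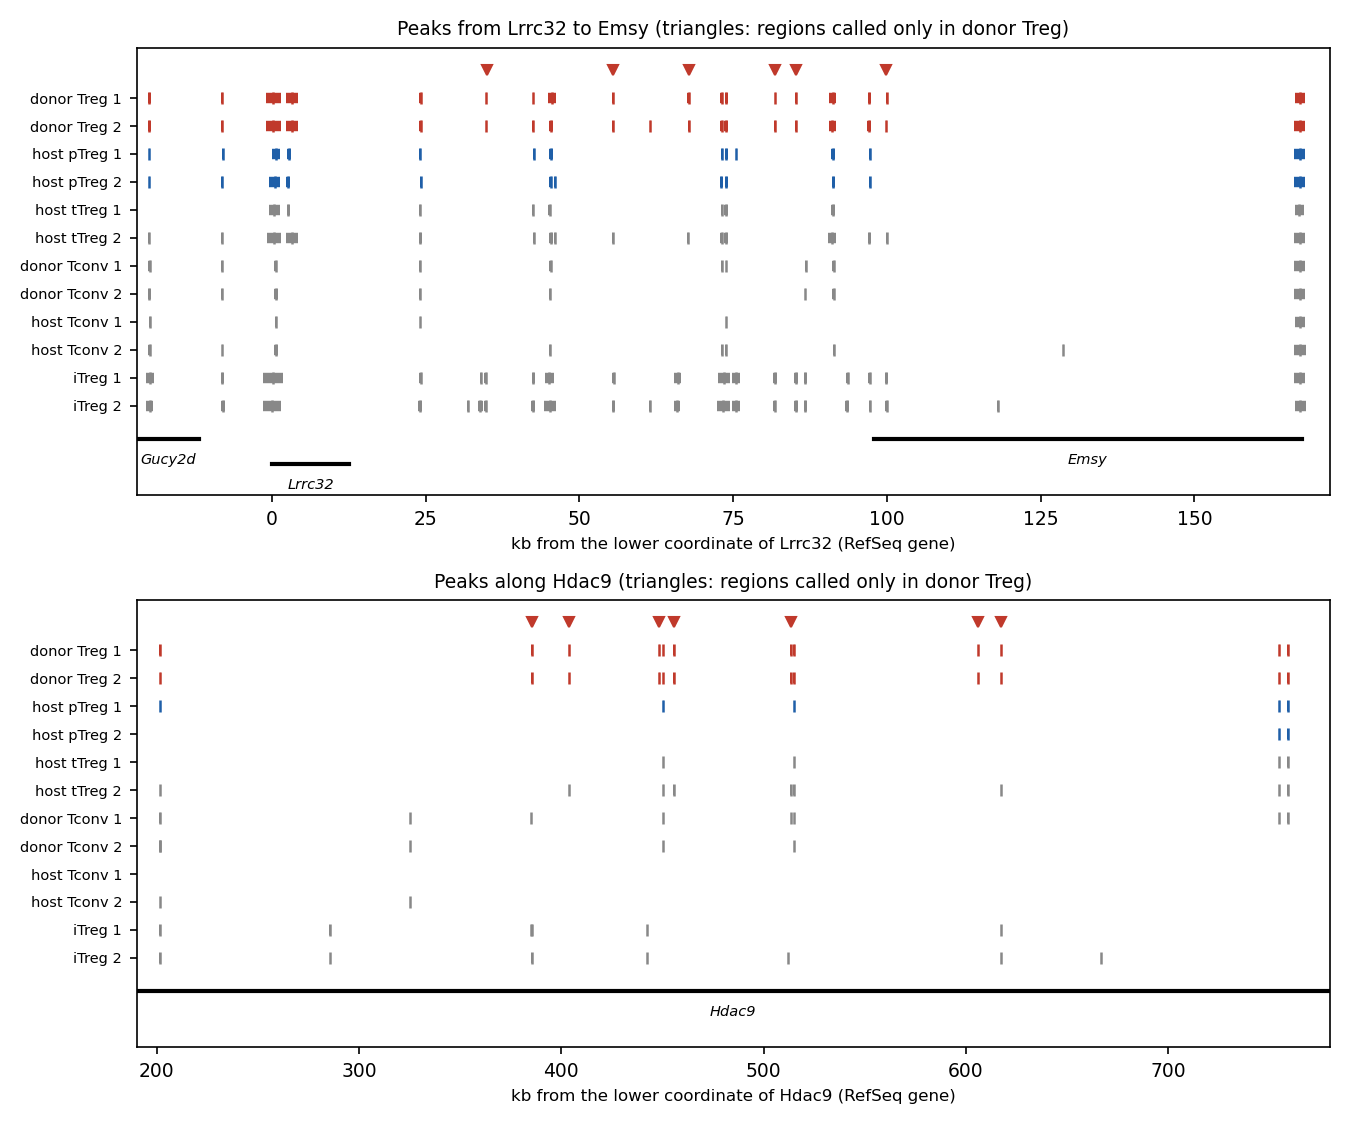
Called peaks in each of the 12 libraries (rows) along the Lrrc32 to Emsy locus and the Hdac9 locus, with kb from the gene's lower coordinate on the horizontal axis, a tick at each peak's centre and triangles at donor Treg-only regions. The 6 Lrrc32 to Emsy regions and 7 Hdac9 regions of donor Treg have ticks in both donor Treg rows and none in the host pTreg rows.

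Genes of naive and quiescent T cells had 11 donor Treg-only and 9 host pTreg-only regions among 245 (4.49% and 3.67%, against 1.94% and 4.33% of all assigned regions). Of the 11, 7 were in all 4 Tconv libraries, none lacked Tconv altogether, and 8 were in no tTreg library. The same patterns were held by 48.4%, 21.0% and 56.7% of all donor Treg-only regions. Bach2, a repressor that keeps lymphocytes from effector fates, had 3 donor Treg-only regions among 32, of which chr4:32247778-32249596 covered 521 and 1819 bp in donor Treg and chr4:32375194-32375554 covered 283 and 361 bp. All 3 were in the 4 Tconv and both iTreg libraries. Its 1 host pTreg-only region, chr4:32401434-32401853, covered 420 and 349 bp there and 226 and 402 bp in host tTreg, with none in Tconv or iTreg. The net of 2 at Bach2 became -1 without host pTreg replicate 2. Satb1, a chromatin organiser, had a single donor Treg-only region at chr17:51857715-51858020, of 285 and 150 bp, that covered 306 bp in all Tconv and iTreg libraries. Lef1 and Tcf7, partner factors of beta-catenin, and Foxp1 each had 1 region in each direction, and Tox, an exhaustion-linked factor, had 2 in each.

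Single regions of donor Treg only stood at Tgfbr2, Cxcr4 and Itgae. At Tgfbr2, a TGF-beta receptor gene, chr9:116187403-116187886 covered 391 and 484 bp in donor Treg and 484 bp in each Tconv library, and none in tTreg or iTreg. At Cxcr4, the receptor that keeps cells in the marrow, and at Itgae, which encodes CD103, both donor Treg libraries had the smallest width of 150 bp. The Itgae region was in none of the other 8 libraries.

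Ikzf2, which encodes Helios, had 3 host pTreg-only regions and none of donor Treg only among 29. At chr1:69549975-69550906 host pTreg covered 672 and 912 bp and host tTreg 597 and 655 bp, with no peak in Tconv or iTreg. At chr1:69653210-69653976 host pTreg covered 655 and 674 bp, host tTreg 547 and 689 bp, and 3 of the 4 Tconv libraries 448 to 533 bp. The narrow chr1:69630292-69630528, of 200 and 231 bp, was otherwise found in host tTreg replicate 2 with 237 bp. All 3 lay inside the gene, and 17 of its regions had a peak in all 4 libraries, so donor Treg lacked a few Ikzf2 regions and held most.

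Host pTreg-only regions also stood at Tnfrsf18, Ctla4, Batf and Entpd1. Downstream of Tnfrsf18, which encodes GITR, chr4:156030523-156031511 covered 879 and 984 bp in host pTreg and 669 and 935 bp in host tTreg, with peaks in both iTreg libraries and none in Tconv or donor Treg. It lay 1629 bp beyond the gene's end. At Ctla4, chr1:60902413-60903015, 6010 bp before the gene, covered 603 and 581 bp in host pTreg, 456 and 534 bp in host tTreg and 562 and 476 bp in donor Tconv. CTLA4 was a sort marker of host pTreg and host tTreg and not of donor Treg, and 8 of 11 Ctla4 regions were shared by all 4 libraries. Batf, an AP-1 factor of effector Tregs, had chr12:85687740-85688253 (379 and 492 bp) and chr12:85695984-85696267 (284 and 234 bp), both without peaks in Tconv or iTreg. Host tTreg replicate 2 covered 375 and 234 bp at these, and replicate 1 covered 150 bp at the second. Entpd1, which encodes the ectonucleotidase CD39, had chr19:40683980-40684724 (441 and 745 bp) and chr19:40691689-40692267 (560 and 566 bp). Icos, Prdm1, Rora and Smad3 had 1 host pTreg-only region each.

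By list, the Treg core genes had 5 donor Treg-only and 9 host pTreg-only regions among 161, or 3.11% and 5.59%. The 5 stood at Lrrc32 (2), Gpr83 (2) and Nrp1 (1) and were all in both iTreg libraries, while 8 of the 9 were in host tTreg replicate 2 and none in all 4 Tconv libraries. Both iTreg libraries held 65.7% of all donor Treg-only regions. Of all host pTreg-only regions, 59.4% were in host tTreg replicate 2 and 29.9% in all 4 Tconv libraries. Of the 19 genes, 2 were net in the donor direction, 5 in the host direction and 12 in neither. The effector and tissue Treg genes had 2 and 10 among 181, or 1.1% and 5.52%, with 8 of 22 genes in the host direction. Both host-side shares lie near the 4.33% of all assigned regions and are no result about these lists.

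Zbtb16, which encodes PLZF, a factor of innate-like T cells, led the host direction with 5 of its 12 regions. They covered 150 to 360 bp in host pTreg, and at chr9:48817313-48817672 the values were 360 and 187 bp. None was in a host tTreg library, and each was in at least 2 Tconv libraries. These regions were thus called in conventional cells and host pTreg, and not in donor Treg or host tTreg. Both iTreg libraries had a peak at 3 of the 5 and neither had one at 1. All 4 Tconv libraries had one at 3. Of all host pTreg-only regions, 37.7% had no peak in a host tTreg library, 55.9% had one in both iTreg libraries and 29.9% in all 4 Tconv libraries. The innate-like T list had 6 of 49 regions (12.2%) of host pTreg only, 5 of them at Zbtb16.

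The other genes of the host direction had 3 or 4 such regions each. They were Trpm2; Aopep, an aminopeptidase; Nfia, a nuclear factor I gene; Atp10a, a phospholipid transporter; Celf2, an RNA-binding protein; Rapgef1 and Akap13, exchange factors of small GTPases; Cd200r4, of the CD200 receptor family; Unc79, a channel subunit; Csf2, the cytokine GM-CSF; and Raly, an RNA-binding protein. Over the 12 genes, 12 of 45 host pTreg-only regions were in all 4 Tconv libraries and 17 in none, and host tTreg carried 10 and 28 by library. Of all host pTreg-only regions, 29.9% were in all 4 Tconv libraries and 35.7% in none, and host tTreg carried 22.7% and 59.4%. The counts of the 12 genes lie near these shares and are no result about them. At Csf2, chr11:54249113-54249700, inside the gene 199 bp from its start, covered 588 and 317 bp in host pTreg and 422 to 588 bp in the Tconv and iTreg libraries. At chr11:54239976-54240372 host pTreg covered 386 and 366 bp and no Tconv library had a peak.

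Genes of Th1 and cytotoxic cells had 2 donor Treg-only and 11 host pTreg-only regions among 102, or 1.96% and 10.8%, against 1.94% and 4.33% of all assigned regions. The 11 stood at 8 of the 15 genes with a region, and the median net per gene was -1, against 0 over all genes. Of the 11, 5 were in all 4 Tconv libraries, 1 in none, and 6 in no tTreg library. The same patterns were held by 29.9%, 35.7% and 37.7% of all host pTreg-only regions. Nkg7 had its start region chr7:43436382-43437252, with 759 and 770 bp in host pTreg and 851 and 720 bp in donor Tconv and 0 and 696 bp in host Tconv, and chr7:43438608-43439101 with 478 and 448 bp; neither was in tTreg. The Il12rb2 start region chr6:67376104-67376387 covered 200 and 227 bp in host pTreg and 284 bp in every Tconv and iTreg library. Tbx21, which encodes T-bet, had chr11:97103264-97103627 (276 and 357 bp) and chr11:97103748-97104528 (781 and 634 bp), each also in both donor Tconv libraries and host tTreg replicate 2. Single host pTreg-only regions stood at Ifng, Eomes, Stat4, Il18rap and Fasl. The starts of the NK genes Ncr1, Klrb1c and Klre1 and of Cd8a had no peak in the 4 libraries. Over the lists of these cell types, each of the 4 libraries had a start peak at 1 of 6 NK genes and 1 of 3 CD8 T genes. Away from its start, Klrb1c had 6 regions shared by all 4. Klri2, of the NK list, had 1 host pTreg-only region. Whether other cells contributed was not tested. The 2 donor Treg-only regions of the list were chr6:67296136-67296326 inside Il12rb2, of 150 bp in both donor Treg libraries, and chr8:70821653-70821930 inside Il12rb1, of 214 and 250 bp. Cd160 is not on this list, and its region chr3:96814394-96814708 covered 230 and 315 bp in donor Treg and 315 bp in each Tconv and iTreg library.

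The Th2 list of 8 genes had 3 host pTreg-only regions among 28 (10.7%, against 4.33% of all assigned regions), at Il4, Il13 and Pparg, and 1 of donor Treg only (3.57%, against 1.94%), at the chemokine receptor gene Ccr3. The stretch from Il4 to Il5 held 3 host pTreg-only regions among 14, at Il4, Il13 and Rad50, and 8 shared by all 4 libraries. Those at Il4 and Il13 are the same as in the Th2 list. The first was the Il4 region chr11:53617229-53617565, of 297 and 234 bp in host pTreg and 226 and 337 bp in host Tconv, with no peak elsewhere. Beside Il13, chr11:53626736-53627108 covered 373 and 358 bp in host pTreg and had no peak in any other library. In Rad50, which holds a control region of this cluster, chr11:53655112-53655506 covered 372 and 356 bp and was also in the 4 Tconv and both iTreg libraries.

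Some stretches held several regions of 1 kind and were picked after their values were seen. On chr6:48626992-48841606, the cluster of Gimap genes, which encode lymphocyte survival GTPases, had 6 host pTreg-only regions, all in host tTreg replicate 2 and 5 in both iTreg libraries. Of all host pTreg-only regions, 59.4% were in host tTreg replicate 2 and 55.9% in both iTreg libraries. The 1 Mb window from 48 Mb that holds the cluster had 56 regions, 7 of them host pTreg only and 36 shared by all 4 libraries. At Ets1, a T cell factor, chr9:32743592-32746660 covered 3069 and 2635 bp in host pTreg, 2014 and 2658 bp in host tTreg and 3069 bp in each iTreg library, with no peak in donor Treg or Tconv. A donor Treg-only region of the same gene, chr9:32660184-32660882, covered 622 and 699 bp in donor Treg and 531 to 686 bp in Tconv, with none in tTreg or iTreg. In the gene-poor stretch beside Sox4, 5 donor Treg-only regions lay between chr13:28419967 and chr13:28833682, and 4 of them were in all 4 Tconv libraries. Nearer to Sox4, chr13:28957841-28958609 was host pTreg only, with 746 and 474 bp. The 1 Mb window from 28 Mb had 19 regions, 8 of them shared by all 4 libraries.

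The stretch from Lrrc3 to Aire, 142 kb of chromosome 10 between 77902069 and 78044138, had 6 host pTreg-only regions among 14 and none of donor Treg only. The Lrrc3 region chr10:77902069-77904008 covered 1573 and 1831 bp in host pTreg and 892 and 1504 bp in iTreg. At the Trpm2 start, chr10:77969418-77970978 covered 1561 and 1312 bp in host pTreg and 1561 and 1318 bp in host tTreg, against 215 and 231 bp in donor Tconv and 188 and 206 bp in iTreg. At all 7 regions of the stretch found in all 4 libraries, both host pTreg and both host tTreg libraries were wider than both donor Treg and all 4 Tconv libraries. Aire is the gene whose name the Aire-HA hosts carry. The part of the host genotype in these values was not tested, and run and group cannot be told apart here.

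**Figure D4:**
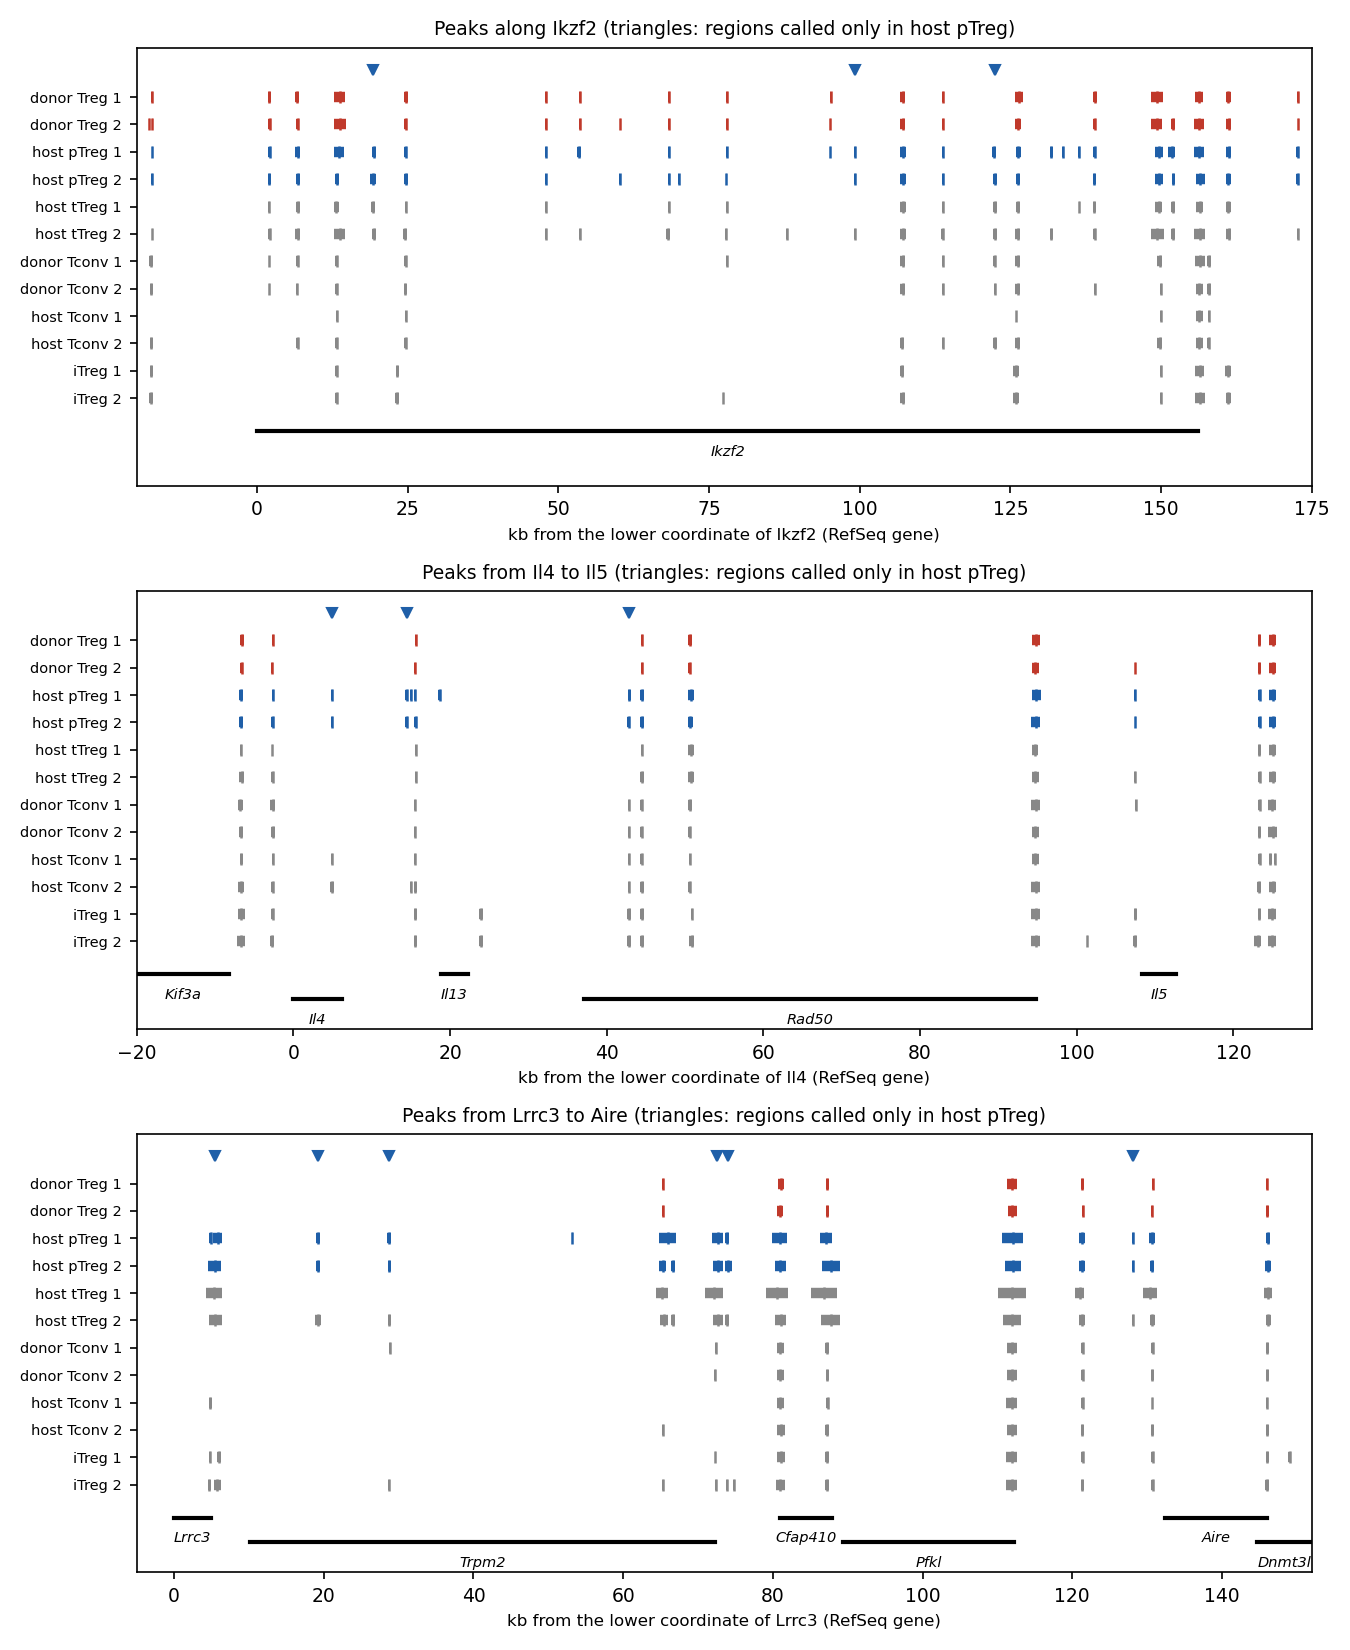
Called peaks in each of the 12 libraries (rows) along Ikzf2, from Il4 to Il5 and from Lrrc3 to Aire, with kb from the lower coordinate of the first gene on the horizontal axis, a tick at each peak's centre and triangles at host pTreg-only regions. The 3, 3 and 6 marked regions have ticks in both host pTreg rows and none in the donor Treg rows, and those of Ikzf2 and of the Lrrc3 to Aire stretch recur in host tTreg replicate 2.

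Of the 46 listed genes, 26 had a differing region and 20 had none, while 1919 of all 13511 genes (14.2%) had one. These counts are not like for like, since a gene with more regions has more that can differ. All 13511 genes together held 37556 regions, and the listed genes had from 1 each (Tgfb1) to 47 (Foxp1). Foxp3 was among the 20 with none, as were Il2ra, Gata3, Ikzf4, Il7r, Itgb8, Lag3, Maf, Nr4a1, Nr4a3, Tigit, Pdcd1, Ccr7, Egr2, Nt5e, Tgfb1, Tgfbr1, Tgfbr3 and Tnfrsf9. The regions shared by all 4 libraries at Foxp3 lay outside its start windows, which had no peak. Before Foxp3, chrX:7571683-7575426, assigned to its neighbour Ppp1r3f, covered 3170 and 3744 bp in donor Treg and 3008 and 1757 bp in host pTreg. Of the Foxp3 regions themselves, chrX:7582796-7584970 had values of 1422 and 2175 bp against 1358 and 1287 bp. At chrX:7592924-7596817 the values were 2698 and 3894 bp against 1326 and 1020 bp, with 714 and 1679 bp in host tTreg, 248 and 209 bp in donor Tconv and none in iTreg.

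Peak width, the bases a region's peaks cover, was tested at the 27069 regions of all 4 libraries, since the rule on presence did not use it. It is set by the peak calling and is not signal height. Values are log2 of the width, centred on each library's median, with donor Treg minus host pTreg as the difference. By limma with Benjamini-Hochberg adjustment at 0.05, 59 regions (0.218%) were wider in donor Treg and 93 (0.344%) in host pTreg, and 1505 and 1538 had an unadjusted p under 0.05. The calls rested on single libraries. When host pTreg replicate 2 was left out they numbered 0 and 1, with 1378 and 1446 at an unadjusted p under 0.05. They numbered 393 and 451 when donor Treg replicate 1 was left out, 355 and 633 for donor Treg replicate 2, and 220 and 65 for host pTreg replicate 1. Without centring limma called none, with 755 and 1165 at an unadjusted p under 0.05. The labels do not say that replicates were separate animals, so these p-values reflect no more than the spread of these 4 libraries, which could be technical.

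The body of Lrrc32 held the region with the smallest p among those wider in donor Treg. At chr7:98491592-98493601 donor Treg covered 1874 and 2010 bp and host pTreg 772 and 641 bp, while host tTreg covered 551 and 1892 bp and Tconv and iTreg had no peak. The difference was 1.48 ± 0.11 (SE, log2, limma adjusted p 0.0096). The Foxp3 region chrX:7592924-7596817, given above, was wider in donor Treg by 1.5 ± 0.17 (SE, log2; limma adjusted p 0.018). At Il7r, the interleukin-7 receptor gene of resting T cells, chr15:9526444-9530399 covered 3341 and 3929 bp against 1929 and 1715 bp, a difference of 1.01 (log2; limma adjusted p 0.02). At Tcf7, a factor of naive and memory T cells, chr11:52273154-52276155 covered 2941 and 2464 bp against 1481 and 1193 bp, a difference of 1.04 (log2; limma adjusted p 0.028). Near Lag3, an inhibitory receptor gene, and outside its body, chr6:124900381-124901516 covered 1009 and 1090 bp against 487 and 470 bp. The difference was 1.15 (log2, limma adjusted p 0.02). Inside Lag3, chr6:124907549-124908156 was not called, with 269 and 367 bp against 504 and 580 bp (-0.76, log2, limma adjusted p 0.26). Nrp1 covered 2269 and 2703 bp against 1370 and 1168 bp at chr8:128357417-128360119, a difference of 0.99 (log2; limma adjusted p 0.02), and host pTreg had been sorted as Nrp1-. Galnt2, a glycosyltransferase gene, had a larger difference of 2.29 from 899 and 806 bp against 208 and 150 bp (log2; limma adjusted p 0.011). Vangl2, Cers6, Fbln1, Zfp608, Dusp16 and a region with no gene within 50 kb completed the 8 with the smallest p, with differences of 1.17 to 2.24.

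Among the listed genes, Tbx21 was wider in host pTreg, with 321 and 243 bp in donor Treg against 744 and 678 bp at chr11:97108720-97109463, a difference of -1.33 (log2; limma adjusted p 0.042). The smallest p of all belonged to Ccdc115, a gene of proton pump assembly, where chr1:34433193-34435301 covered 316 and 281 bp in donor Treg and 2109 and 1759 bp in host pTreg (-2.67 ± 0.14, SE, log2; limma adjusted p 0.0026). Inside Trpm2, chr10:77962361-77964639 covered 300 and 227 bp against 2279 and 1452 bp (-2.78 ± 0.2, SE, log2; limma adjusted p 0.0096), in the stretch described above. Arhgap9 and Wipf1, genes of the actin cytoskeleton in blood cells, followed with differences of -1.61 and -1.56 (limma adjusted p 0.0096 for each). Mocos, Oacyl, Ppp2cb and Lao1 completed the 8, with differences of -1.61 to -2.47. Regions wider in donor Treg lay within 1 kb of a start in 35.6% of cases and those wider in host pTreg in 15.1%, against 33.9% of the regions tested. All 4 Tconv libraries had a peak at 88.1% and 76.3% of them, against 89.5%. By list, beside the 0.218% and 0.344% of all regions tested, the naive and quiescence genes had 3 regions wider in donor Treg and 0 in host pTreg among 147, and the Treg core 3 and 1 among 109. The inhibitory receptors had 2 and 0 among 81, the effector and tissue Treg genes 0 and 2 among 115 and the TGF-beta pathway 0 and 2 among 86; no other list had more than 1 in a direction.

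**Figure D5:**
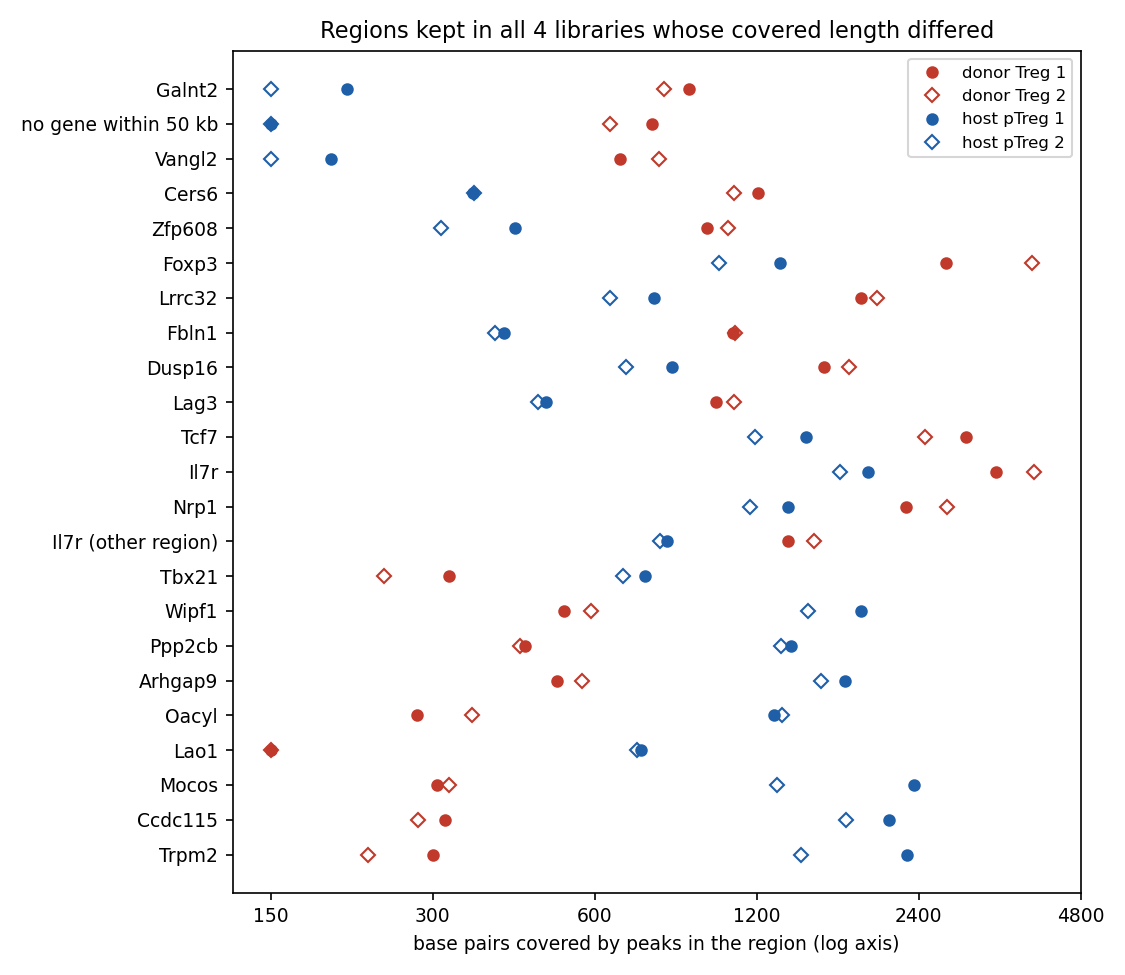
Width covered by peaks (bp, horizontal log axis) at 23 regions of all 4 libraries called by limma, 1 per line; each point is 1 library, red for donor Treg and blue for host pTreg. Lrrc32 has its donor Treg points at 1874 and 2010 bp above its host pTreg points at 772 and 641 bp, and Ccdc115 its host pTreg points at 2109 and 1759 bp above 316 and 281 bp.

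The remaining lists are given beside the 1.94% (donor Treg only) and 4.33% (host pTreg only) of all assigned regions. The TGF-beta pathway had 5 regions in each direction among 125 (4.0% each) and the inhibitory receptors 3 in each direction among 121 (2.48% each). The bone marrow homing genes had 5 donor Treg-only (5.21%) and 7 host pTreg-only regions (7.29%) among 96, above the shares of all regions in both directions. The integrin genes had 2 (2.13%) and 7 (7.45%) among 94, and the interleukin-2 and STAT5 genes 2 (2.2%) and 6 (6.59%) among 91. The pan-T genes had 5 (3.45%) and 8 (5.52%) among 145, and the TCR activation genes 3 (2.21%) and 6 (4.41%) among 136. The Th17 genes had 3 (6.25%) and 1 (2.08%) among 48, and the Tfh genes 1 (1.82%) and 3 (5.45%) among 55. The 8 lists of other cell types, from CD8 T to stem cells, together had 4 donor Treg-only and 6 host pTreg-only regions among 151. Of the 1991 windows of 1 Mb that held a region, 8 had 5 or more donor Treg-only regions and 43 had 5 or more host pTreg-only regions. Within 20 Mb of Ptprc, the CD45 gene whose alleles separate donor from host, 12 of 704 regions (1.7%) were donor Treg only and 32 (4.55%) host pTreg only, near the shares over the genome.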

How the data were processed

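ATAC-seq peak lists of 4 libraries (donor Treg and host pTreg, 2 each) were compared, with 8 further libraries as references. Per the submitters' processing notes the tools were Bowtie2 2.3.3, HOMER 4.10 and bedtools with build mm10. The roles of these tools, their settings, the read shifting and the read numbers are, for these files, not given in the sources used here. A deposited list has coordinates, names and scores. The authors' score has the same value at every peak and was not used. Coordinates deposited by the authors are the measurement and are printed from 1; the same 4 lists gave presence and covered width.

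Groups come from sample titles. Peaks sharing 1 bp were merged with Python 3.11.15 (pandas 2.3.3); a region counted for a group when both its libraries and neither of the other group had a peak. Genes and promoter sequences come from RefSeq tables of GRCm38.p6. Widths were tested with limma 3.58.1 in R 4.3.3 (median-centred log2 of covered bases, trend, Benjamini-Hochberg at 0.05), after a test on simulated data. Named genes are, in each direction, the 12 whose net number of regions was largest (fewer regions first in a tie), and the listed genes; for widths, the 8 regions with the smallest p in each direction and listed genes. Single regions of other genes were chosen after their values were seen, apart from promoter regions of list genes. The members, the 24 lists and the alternatives were chosen with earlier results of these data known. Alternatives were other merging, width and list-length rules, other normalizations and leaving out each library; leaving out chromosome Y, and single genes and width regions under every setting, were added after seeing the data. Some items are not reported here.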

Additional observations from a re-analysis of the deposited data

How the results depend on the processing

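With lists of equal length, donor Treg-only regions numbered 1375 in place of 901. Leaving out 1 library, the donor Treg-only count ran from 1151 to 2623 and the host pTreg-only count from 2449 to 5287. By construction, a peak or its absence is then asked of fewer libraries. Merging within 200 bp, asking for cover of 0.5 of the region, peaks of at least 300 bp and the 12-library merge kept both counts within 1.5 times. Of 67 net values of genes, 35 moved with peaks of at least 300 bp, and Bach2 turned from 2 to -1 without host pTreg replicate 2 (-1 to 3 over the libraries left out).

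For widths, the calls numbered 0 and 0 without centring and 30 and 60 with quantile normalization. Leaving out 1 library gave 0 to 393 wider in donor Treg and 1 to 633 wider in host pTreg; the lone sample of a group was then taken to vary like the other group. Fits with a replicate block, although the correlation of replicate deviations was -0.06 and nothing in the labels pairs equal numbers, gave 689 and 744. The causes were not tested. Of the 23 named width regions, 16 could be recomputed where each library had 1 peak and all 23 elsewhere; the sign was kept in all 177 recomputed values, and all 23 lost the call without centring and without host pTreg replicate 2. Read depth is unknown and limits every statement about a missing peak.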
